A study of Bos taurus with 48 samples.

Results

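The transforming growth factor beta (TGF-beta) ligands TGFB1, TGFB2 and TGFB3, their receptors TGFBR1, TGFBR2 and TGFBR3, the TGF-beta-induced genes TGFBI and TGFB1I1, and the related ligand BMP6 were followed in cow endometrium. A probe was assigned to a member when the gene name of the array, or the symbol in the last brackets of its description, was that of the member. This gave 9 of the 15247 symbols on the array, read by 11 of its 21475 probes. Of these 11 probes, 10 passed the filter on signal, at least 1 for each gene, and the second TGFBR1 probe did not, with a signal in 15 of 44 samples.

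Endometrium was taken on day 17 of the reproductive cycle from 22 lactating Holstein-Friesian dairy cows of mixed New Zealand and North American ancestry, all with synchronised oestrous cycles. Of these, 12 were pregnant after the transfer of a grade 1 blastocyst on day 7, and 10 were cyclic, with no embryo transferred. The ages of the cows are not given in the sources used here. From every cow both caruncular endometrium (the raised areas to which the placenta attaches in ruminants) and intercaruncular endometrium (the glandular areas between them) were measured. The labels divide the pregnant cows by embryo size, with 7 large and 5 small embryos (small under 20 cm and 40 mg, large over 20 cm and 75 mg), and by a fertility label, with 6 fertile and 6 sub-fertile cows. The size and fertility labels were crossed, with 3 fertile cows among those with large and 3 among those with small embryos.

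Each value is the log2 ratio of a sample to a pool of all 44 samples on a 2-colour oligonucleotide array, so a level of 0 is the level of the pool. Levels are compared between cows for 1 probe and never between probes. The 48 arrays lay on 12 slides, and 68.8 to 84.0% of their spots were well above background. Most slides held 1 tissue and 1 reproductive state. Caruncular and intercaruncular samples were scanned on different dates, except those of 1 pregnant and 1 cyclic cow, whose tissues were run on the same slide on the third date. In the intercaruncular samples of these cows, some receptor probes stood apart from the remaining samples.

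TGF-beta ligands are secreted in a latent form and are released by integrins, proteases and matrix proteins. They bind the type II receptor TGFBR2, which activates the type I receptor TGFBR1, while TGFBR3 (betaglycan) presents ligand, TGFB2 above all, to this pair. The receptors phosphorylate SMAD proteins, which enter the nucleus and switch on matrix and cytoskeletal genes. BMP6 belongs to the bone morphogenetic protein branch, which uses other receptors and other SMADs. In the uterus the family is known for its part in stromal remodelling, immune tolerance and the preparation of the endometrium for an embryo.

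The 3 probes that are printed here read the genes whose levels moved with pregnancy in caruncular tissue. The first 30 of the 60 bases of each are shown, 5′ to 3′, as the study lists them, with no base singled out by a capital letter.
TGFB2 probe: tgtaccaactgcccaaggaagcttcttgta
TGFBI probe: aaatggcatccttataagctatgagttgaa
BMP6 probe: aacaaattgtaccactttgattttctttta
The whole probes hold 23, 26 and 21 G or C bases of 60.

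Ligands and induced genes of this family differed between pregnant and cyclic cows, and 0 receptor probes passed the same test. In caruncular endometrium TGFB2 and BMP6 were lower and TGFBI was higher in pregnant than in cyclic cows. In intercaruncular endometrium all 3 TGF-beta ligands and TGFB1I1 were lower, TGFB3 by 1 of 2 probes. A probe was called when limma gave an adjusted p under 0.05 and a difference of 1.5-fold or more. By this rule 3 of 10 member probes were called in caruncular tissue, where 9.97% of all probes tested were, and 4 of 10 in intercaruncular tissue, where 7.23% were. In caruncular tissue 1 member probe was called higher (6.09% of all probes) and 2 lower (3.88%). In intercaruncular tissue 0 were called higher (4.3%) and 4 lower (2.93%). By adjusted p alone the counts were 4 of 10 (25.7% of all probes) and 5 of 10 (19.8%). On the log2 scale the 10 probes had a median difference of -0.22 (caruncular) and -0.30 (intercaruncular), beside -0.02 and 0.00 over all probes tested. The groups overlapped for every member probe in both tissues.

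**Figure D1:**
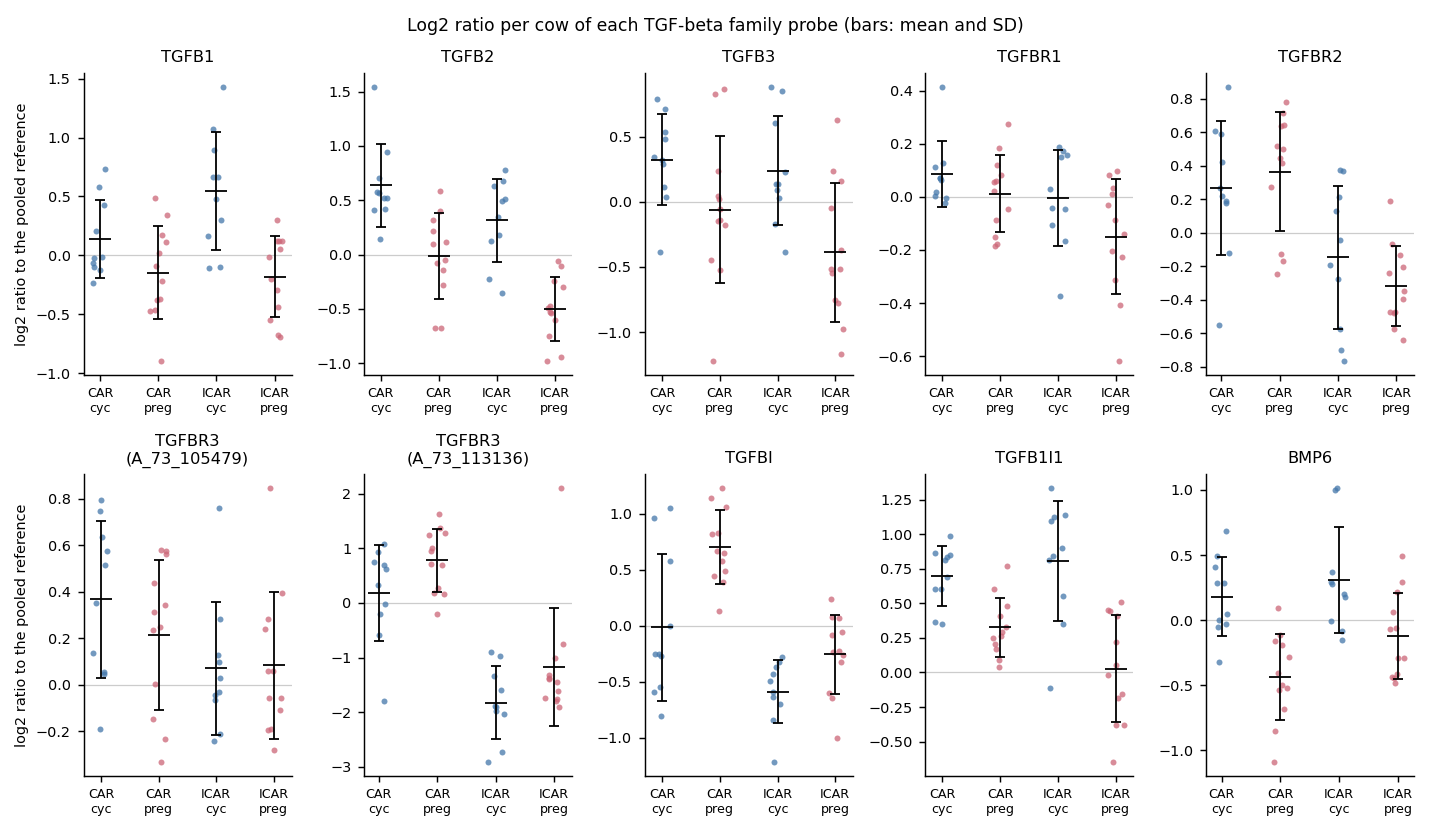
Log2 ratio to the pooled reference (vertical axis, its range set for each probe) of the 10 tested probes in caruncular (CAR) and intercaruncular (ICAR) endometrium of 10 cyclic (cyc) and 12 pregnant (preg) cows. Each point is a cow and the bars are the mean and SD, with TGFB2 lower in pregnant cows in both tissues. The second TGFBR3 probe was mostly under the detection limit in intercaruncular samples, where 1 pregnant cow is at 2.11, and no tissue difference is read from it.

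Among the ligands, TGFB2 gave the lowest adjusted p of the family in intercaruncular tissue. Its level ranged from -0.98 to -0.06 (median -0.51) in the 12 pregnant and from -0.36 to 0.78 (median 0.42) in the 10 cyclic cows. Of the pregnant cows 8 lay below the lowest cyclic cow, and 8 cyclic cows lay above the highest pregnant cow. The means differed by -0.82 on the log2 scale (SE 0.14, 1.76-fold lower in pregnant cows, adjusted p = 0.000344). In caruncular tissue TGFB2 ranged from -0.67 to 0.59 (median 0.03) in pregnant and from 0.14 to 1.54 (median 0.54) in cyclic cows. Again 8 pregnant cows lay below the lowest cyclic cow, and the difference was -0.65 (SE 0.16, 1.57-fold lower, adjusted p = 0.00485). Without the third scan date it was -0.56 (adjusted p = 0.00731), which is under 1.5-fold.

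TGFB1, the ligand best known for restraining immune cells, fell in intercaruncular tissue. Its level was -0.69 to 0.30 (median -0.11) in pregnant and -0.11 to 1.43 (median 0.57) in cyclic cows. In 6 cyclic cows it was above the highest pregnant cow, and the difference was -0.73 (SE 0.17, 1.66-fold lower, adjusted p = 0.00536). In caruncular tissue the difference was -0.29 (SE 0.15, adjusted p = 0.172), with pregnant cows at -0.90 to 0.49 and cyclic cows at -0.24 to 0.73. These ranges overlapped over most of their length.

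TGFB3, a ligand known for its part in scarless repair and stromal differentiation, also fell in intercaruncular tissue. The level was -1.17 to 0.63 (median -0.52) in pregnant and -0.39 to 0.88 (median 0.13) in cyclic cows, a difference of -0.63 (SE 0.20, 1.54-fold lower, adjusted p = 0.0281). In 7 pregnant cows it was below the lowest cyclic cow. In caruncular tissue the difference was -0.38 (SE 0.20, adjusted p = 0.151), and the pregnant cows spread from -1.22 to 0.87. These values are those of the member probe. A second TGFB3 probe, outside the assignment rule, differed by -0.26 in intercaruncular tissue (SE 0.22, limma, adjusted p = 0.438) and was not called. Its signal there was close to the detection limit, with 7 of 12 pregnant and 7 of 10 cyclic samples detected.

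BMP6, a ligand of the BMP branch known from granulosa cells and from the control of iron uptake, fell in caruncular tissue. Pregnant cows had a level of -1.09 to 0.09 (median -0.45) and cyclic cows of -0.32 to 0.69 (median 0.16). Below the lowest cyclic cow lay 7 of the 12 pregnant cows, and the difference was -0.62 (SE 0.13, 1.53-fold lower, adjusted p = 0.00181). In intercaruncular tissue it was -0.43 (SE 0.15, adjusted p = 0.0477), past the adjusted p and 1.35-fold in size, with levels of -0.49 to 0.49 in pregnant and -0.15 to 1.02 in cyclic cows.

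TGFBI, a secreted matrix protein that binds collagen and integrins, was the 1 member probe called higher in pregnant cows. Its caruncular level was 0.13 to 1.23 (median 0.66) in pregnant and -0.81 to 1.05 (median -0.25) in cyclic cows. The pregnant cows were all above the pool, and 7 of 10 cyclic cows lay below the lowest pregnant cow. The difference was 0.72 (SE 0.21, 1.64-fold higher, adjusted p = 0.0133). In intercaruncular tissue it was 0.33 (SE 0.13, adjusted p = 0.0826), with 8 of 12 pregnant cows above the highest cyclic cow.

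TGFB1I1, also called Hic-5, is a focal adhesion protein abundant in smooth muscle. In intercaruncular tissue its level was -0.65 to 0.51 (median 0.02) in pregnant and -0.11 to 1.33 (median 0.87) in cyclic cows. Above the highest pregnant cow lay 8 of 10 cyclic cows, and the difference was -0.78 (SE 0.17, 1.71-fold lower, adjusted p = 0.00255). In caruncular tissue the difference was -0.37 (SE 0.09, adjusted p = 0.00524), past the adjusted p but 1.29-fold in size. There 8 of 12 pregnant cows lay below the lowest cyclic cow.

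None of the receptor probes was called in either tissue. TGFBR1, the type I receptor kinase, differed by -0.07 (95% interval -0.21 to 0.06) in caruncular and -0.15 (-0.33 to 0.04) in intercaruncular tissue. TGFBR2, the type II receptor, differed by 0.10 (-0.22 to 0.42) and -0.17 (-0.46 to 0.12). The intervals of both genes leave out a 1.5-fold difference. For TGFBR3, the co-receptor, probe A_73_105479 differed by -0.15 (-0.44 to 0.13) and 0.01 (-0.25 to 0.28). Probe A_73_113136 of the same gene differed by 0.60 (-0.01 to 1.20, adjusted p = 0.137) and 0.65 (-0.11 to 1.42, adjusted p = 0.218), intervals that hold both 0 and more than 1.5-fold. Without the third scan date these differences of A_73_113136 were 0.41 (adjusted p = 0.216) and 0.46 (adjusted p = 0.106). Its intercaruncular values lie mostly under the detection limit, with a signal in 3 of 12 pregnant and 4 of 10 cyclic cows.

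**Figure D2:**
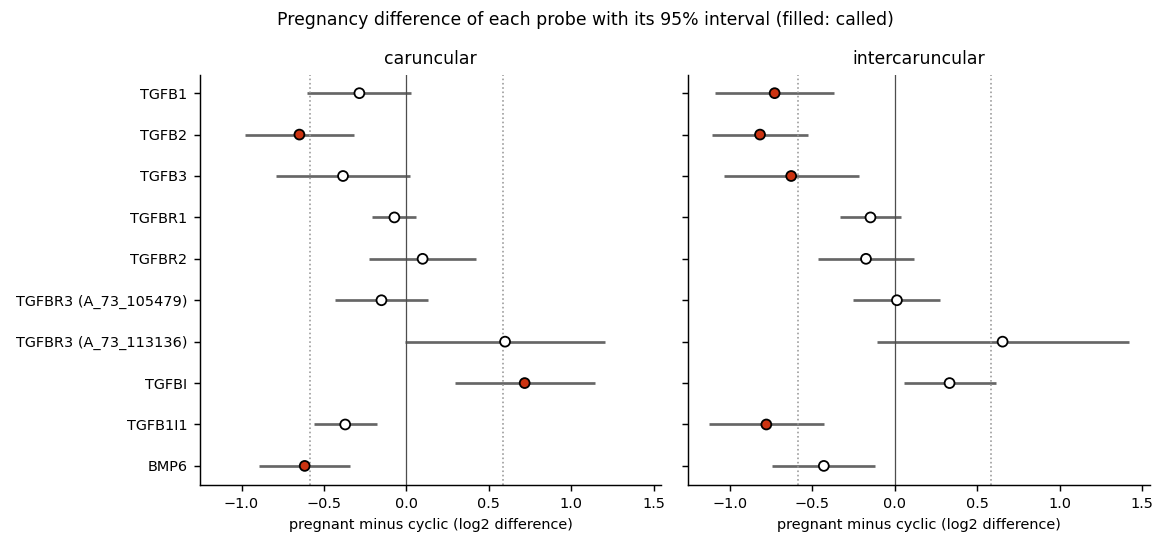
Difference between the mean of pregnant and the mean of cyclic cows (horizontal axis, log2 scale) of the 10 tested probes in each tissue, with 95% intervals from limma, filled points for probes called and dotted lines at 1.5-fold. TGFBI is called higher at 0.72 in caruncular tissue, and the called ligands and TGFB1I1 lie between -0.62 and -0.82.

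A call in 1 tissue alone did not make a tested difference between the tissues. The difference of the pregnancy effect, caruncular less intercaruncular, was called for 0 of 10 member probes by limma, where 0.0204% of all probes tested were called and 1061 had an unadjusted p under 0.05. It was 0.44 for TGFB1 (SE 0.24, adjusted p = 0.742) and 0.41 for TGFB1I1 (SE 0.19, adjusted p = 0.659). With each cow as a block the adjusted p of these 2 probes was 0.104 and 0.286.

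State was partly tied to slide. Pregnant and cyclic cows of 1 tissue shared a slide on 2 caruncular slides and 1 intercaruncular slide, each with 1 cyclic cow. On slide 7, with 3 pregnant cows, the caruncular difference was -0.85 for TGFB2, -1.02 for BMP6, -0.60 for TGFB1I1 and 0.04 for TGFBI. On slide 10, with 2 pregnant cows, it was -0.67 for TGFB2, -0.95 for BMP6, -0.43 for TGFB1I1 and 0.61 for TGFBI. On slide 2, with 3 pregnant cows, the intercaruncular difference was -1.27 for TGFB2, -1.66 for TGFB3, -0.34 for TGFB1 and -0.10 for TGFB1I1. The direction of all these values was that of the whole comparison, and for TGFBI on slide 7 and TGFB1I1 on slide 2 little of the size was left. Slides 7 and 2 held the 2 tissues of the same cows, so they are not separate checks, and their pregnant cows were all sub-fertile. On slide 10 the arrays of the cyclic cow and of 1 pregnant cow were repeat runs of samples also measured on other slides. With slide as a random block TGFB2 alone of the intercaruncular probes was still called, and TGFBI was no longer called in caruncular tissue (0.60, adjusted p = 0.105).

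Markers of other cell types moved with pregnancy too. Of 5 tested smooth muscle probes, 3 were lower in each tissue, those of ACTG2, CNN1 and MYH11. CNN1, which encodes calponin, differed by -1.35 in caruncular and -1.33 in intercaruncular tissue (adjusted p = 0.000686 and 0.00141). The summed linear ratio of the 5 probes was 2.52 to 7.32 in pregnant and 4.21 to 9.90 in cyclic caruncular samples, and 1.90 to 5.97 and 3.09 to 9.33 in intercaruncular samples. Of 6 endothelial probes, 3 were lower in each tissue (PECAM1, TEK and TIE1). Their summed ratio was 3.49 to 7.97 in pregnant and 5.01 to 9.96 in cyclic caruncular samples, and 3.86 to 7.22 and 6.43 to 11.3 in intercaruncular samples. Of 6 macrophage probes, 3 were higher in caruncular tissue (AIF1, CSF1R and MRC1) and 2 in intercaruncular tissue, with sums of 4.59 to 9.65 against 2.995 to 6.33 and of 4.06 to 9.20 against 3.34 to 5.92. Of 7 stromal probes the 2 of PDGFRA were called higher in caruncular tissue and 1 of them in intercaruncular tissue. Of 6 epithelial probes, KRT18 (-0.84) and KRT19 (-0.75) were lower and CDH1 (1.04) and CLDN4 (0.97) higher in caruncular tissue, and CDH1 (0.73) and CLDN4 (1.12) were higher in intercaruncular tissue. The summed ratio of the 6 was 3.66 to 9.98 in pregnant and 2.91 to 6.34 in cyclic caruncular samples, and 4.88 to 10.7 and 4.65 to 6.08 in intercaruncular samples. Of 7 probes for T and NK cells, NKG7 was higher in caruncular tissue (0.77), with sums of 5.78 to 11.6 against 5.26 to 9.84, and 0 were called in intercaruncular tissue. The part of these cell types in the members' results was not tested, and in whole tissue fewer cells of a type and less RNA per cell cannot be told apart. None of the 5 conceptus markers with a probe was detected in any of the 44 samples.

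The other genes of the pathway were described from 7 lists of 85 genes, of which 68 were tested by 79 probes. In caruncular tissue 5 probes were higher and 11 lower in pregnant cows, 20.3% of those tested beside 9.97% of all probes. In intercaruncular tissue 1 was higher and 12 were lower, or 16.5% beside 7.23%.

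More of the genes that TGF-beta is known to switch on were called lower than higher, and the rest were not called. Of the 17 probes for targets and matrix genes, 5 were lower and 1 higher in caruncular tissue, with a median of -0.41, and 7 were lower and 1 higher in intercaruncular tissue, with a median of -0.46. ACTA2 (smooth muscle actin) had the largest difference in both, -1.46 (SE 0.37) and -1.37 (SE 0.29). COL3A1, a fibrillar collagen, differed by -0.90 (SE 0.25) and -1.30 (SE 0.22). TAGLN, POSTN and CYR61 were called lower in both tissues, and COL1A1 and COL1A2 in intercaruncular tissue. ACTA2 and TAGLN are smooth muscle genes as well, and fell together with the smooth muscle markers above. FMOD, the matrix proteoglycan fibromodulin, was higher in both, by 0.83 (SE 0.21) and 0.92 (SE 0.19). TGFBI, itself induced by TGF-beta, was higher in caruncular tissue as FMOD was.

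On the list of latency and activation genes, THBS1, an activator, was lower in both tissues, by -1.08 (SE 0.29) and -0.90 (SE 0.32). In caruncular tissue the integrin subunit ITGAV (0.60, with its second probe at 0.22 and not called) and LTBP2 (0.60) were higher. The integrin subunit ITGB8 (-0.63) was lower there. On this list 4 of 14 probes were called in caruncular and 1 of 14 in intercaruncular tissue. Of 21 probes for SMADs and their regulators, PMEPA1, a target that damps TGF-beta signalling, was lower in both tissues (-0.67, SE 0.15, and -0.76, SE 0.14, with its second probe at -0.31 and -0.40, past the adjusted p and under 1.5-fold), and SMAD9, a SMAD of the BMP branch, was higher in caruncular tissue (0.59, SE 0.14). For the other receptors and co-receptors 0 of 9 probes were called in either tissue.

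Among other genes with a BMP or GDF name 0 of 7 probes were called. The BMP antagonist NOG (noggin) was lower in both tissues, by -0.94 (SE 0.22) and -1.17 (SE 0.20). GREM1, also an antagonist, was lower in intercaruncular tissue, by -1.10 (SE 0.21). Of 7 probes for BMP targets, ID4 was lower in both (-0.85 and -0.60), MSX1 was lower (-1.25) and ID1 higher (0.81) in caruncular tissue.

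**Figure D3:**
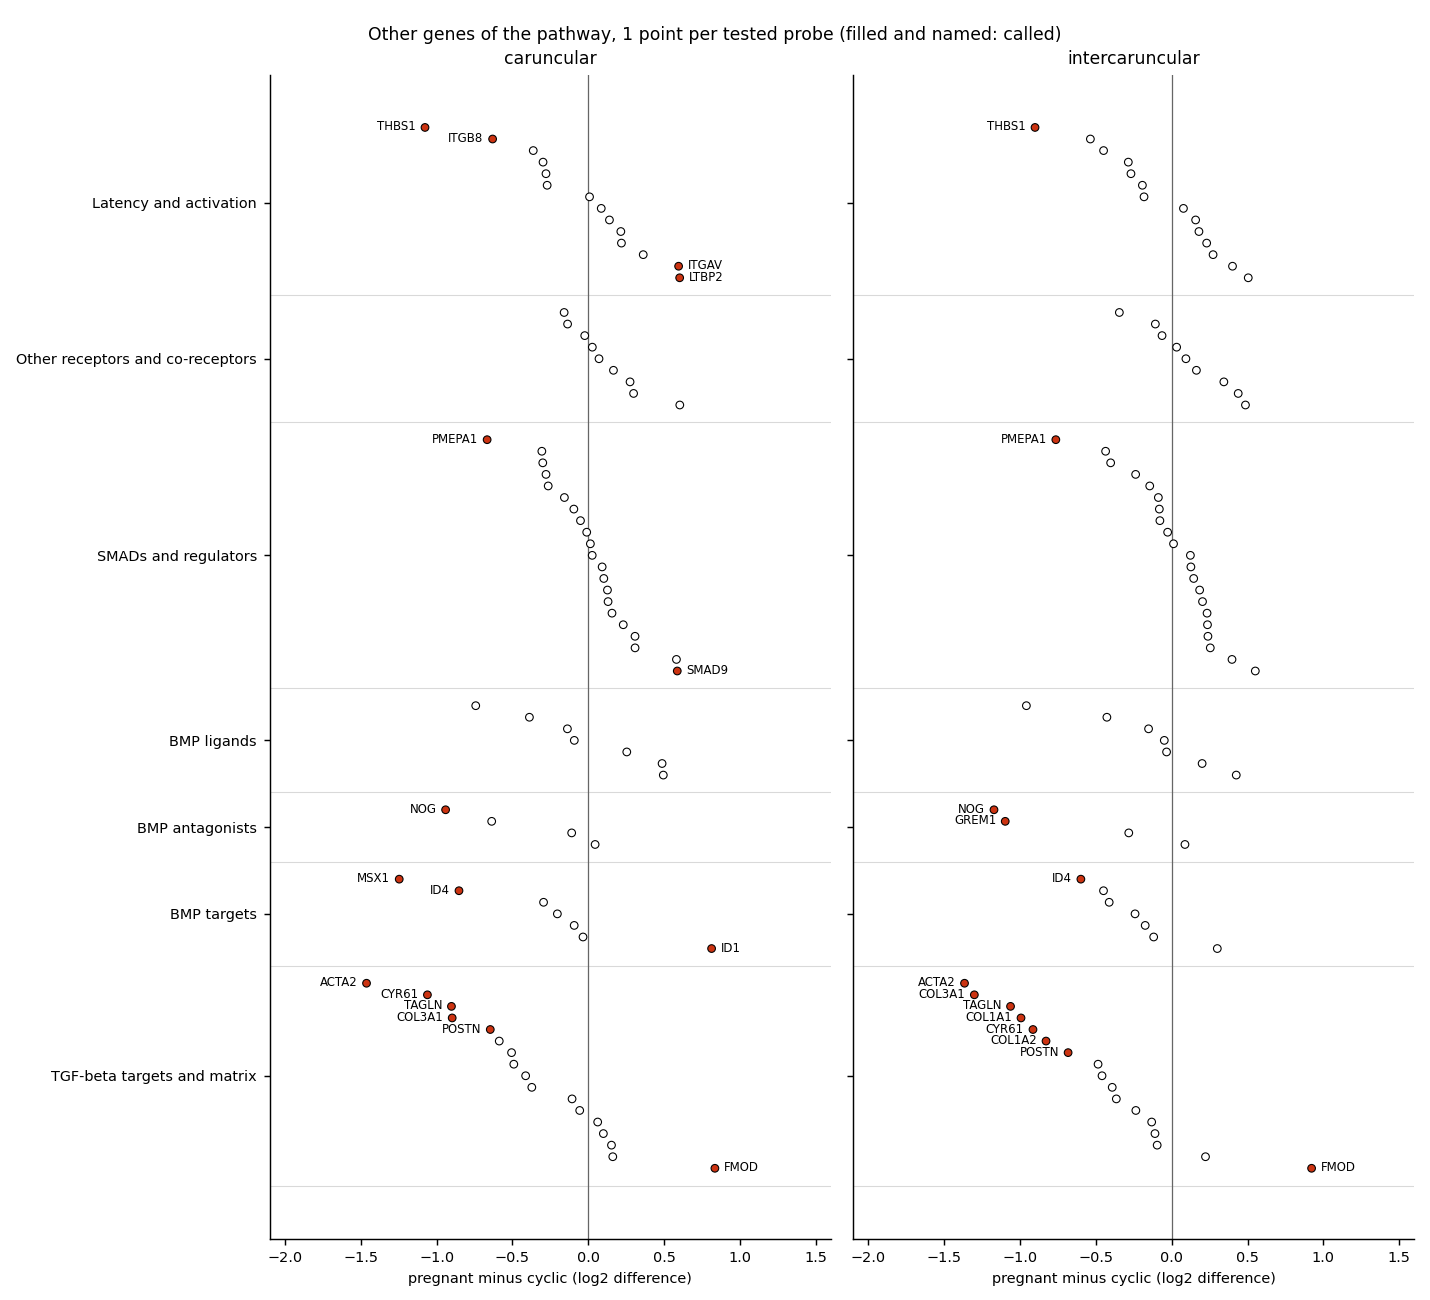
Difference between pregnant and cyclic cows (horizontal axis, log2 scale) of the 79 probes of 7 pathway lists in each tissue, with 1 point per probe, sorted within a list along the vertical axis, and filled, named points for probes called. Of the 17 target and matrix probes, 5 lie on the lower side as called points in caruncular and 7 in intercaruncular tissue, and FMOD is the 1 called higher.

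TGFBI and TGFBR2 were higher in caruncular than in intercaruncular tissue in both states. In cyclic cows 3 of 10 member probes, those of TGFBI and TGFBR2 and 1 of TGFBR3, were called higher in caruncular tissue at an adjusted p under 0.05 (17.4% of all probes were called higher and 19% lower, 36.4% together). In pregnant cows 4 of 10 were called, all higher (21.3% higher and 25.6% lower, 46.8% together). Both counts include TGFBR3 probe A_73_113136, from which no tissue difference is read. It was detected in 3 of 12 pregnant and 4 of 10 cyclic intercaruncular samples, and passed the filter mainly through caruncular samples. TGFBI was higher by 0.57 (SE 0.18, adjusted p = 0.0132) in cyclic and 0.96 (SE 0.17, adjusted p = 1.30e-05) in pregnant cows. The caruncular sample was the higher in 8 of 10 cyclic and 12 of 12 pregnant cows. TGFBR2 was higher by 0.41 (SE 0.16, adjusted p = 0.0353) and 0.68 (SE 0.14, adjusted p = 0.000145), in 9 of 10 and 11 of 12 cows. Without the third scan date the cyclic difference of TGFBR2 was 0.37 (adjusted p = 0.0605). In the 4 caruncular samples run again on that date, TGFBR2 was higher in the repeat run each time, by 0.14 to 0.22. TGFB2 was higher in pregnant cows, by 0.49 (SE 0.15, adjusted p = 0.00552), in 11 of 12 cows.

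Both tissues came from the same cows, and the fits above did not use this pairing. With the cow as a fixed block 5 of 10 member probes were called in cyclic and 6 of 10 in pregnant cows. Over all probes tested, that fit called 8167 and 9238 of 14711. The block added TGFB1, which was lower in caruncular tissue of cyclic cows (-0.41, adjusted p = 0.00212), and TGFB2, which was higher there (0.32, adjusted p = 0.0257). In pregnant cows it added BMP6, lower in caruncular tissue (-0.32, adjusted p = 0.0065), and TGFB3, higher there (0.33, adjusted p = 0.0102). With the cow as a random block TGFBR3 probe A_73_105479 was added in cyclic cows, and TGFBR1 and TGFB1I1 in pregnant cows. Over all probes tested, this fit called 8047 in cyclic and 9150 in pregnant cows. Of the pathway lists, 30 of 79 probes were higher and 6 lower in caruncular tissue of cyclic cows, and 39 higher and 10 lower in pregnant cows, or 45.6% and 62.0% beside 36.4% and 46.8% of all probes. Among them 13 of 17 target and matrix probes were higher in pregnant cows. Stromal markers were higher as well, in 4 of 7 probes in cyclic and 6 of 7 in pregnant cows, with a summed ratio of 8.75 to 14.7 in caruncular and 5.53 to 9.71 in intercaruncular samples of pregnant cows. Their part in the result was not tested.

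Tissue and scan date cannot be told apart in 20 of the 22 cows. In the other 2 cows, with both tissues on 1 slide, TGFBI was higher in caruncular tissue by 1.15 and 1.48, TGFBR2 by 0.57 and 0.50 and TGFB2 by 0.59 and 1.05. These are the directions seen in the whole comparison. TGFBR1, TGFB3 and TGFB1I1 were higher there by 0.43 to 0.98. TGFB1, lower in caruncular tissue of cyclic cows in the whole comparison, was at 0.07 in the cyclic and 0.20 in the pregnant cow, and BMP6 at 0.01 and -0.20. TGFBR3 probe A_73_105479 was at -0.95 and -0.29, against 0.30 and 0.13 in the whole comparison. TGFBR3 probe A_73_113136 turned further. It was higher in caruncular tissue in 20 of 20 cows with their tissues on different slides, by 1.31 to 3.60, and lower in both cows with their tissues on 1 slide, by -1.39 and -0.89. The whole comparison gave 2.01 (SE 0.36) in cyclic and 1.95 (SE 0.33) in pregnant cows, and with slide or scan date as a fixed block the sign turned (-1.04 to -1.25). Such fits rest on the same 2 cows, since tissue and scan date are tied in the others. The RNA of 4 caruncular samples was run again on the third date, and this probe then differed by at most 0.37 between the runs. It was detected in 12 of 12 pregnant and 9 of 10 cyclic caruncular samples and in 3 of 12 and 4 of 10 intercaruncular samples. No tissue difference is therefore given for TGFBR3 as a gene. Over all tested probes the tissue difference of the 2 cows correlated with the mean of the 20 others with r = 0.37 and 0.30, where that of each of the 20 did so with r = 0.45 to 0.90. Whether the tissue labels of the 2 cows hold was not tested beyond this.

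**Figure D4:**
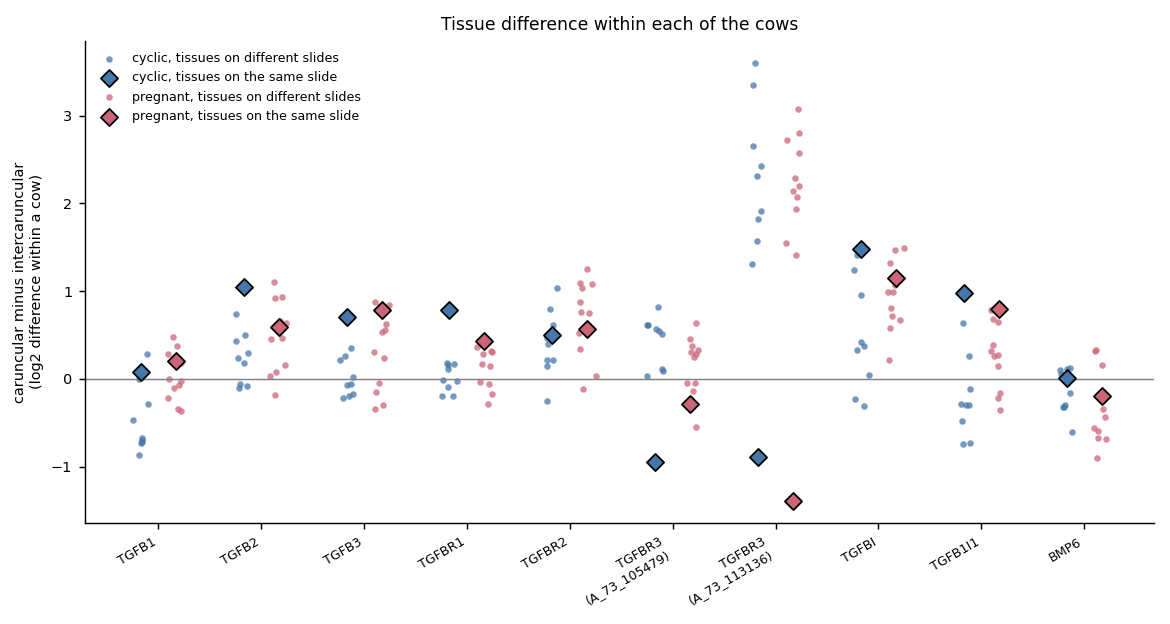
Caruncular less intercaruncular log2 ratio within a cow (vertical axis) for the 10 tested probes, for cyclic and pregnant cows, with diamonds for the 2 cows whose tissues were on the same slide. TGFBR3 probe A_73_113136 is at 1.31 to 3.60 in the 20 cows on different slides and at -0.89 and -1.39 in the 2 cows on 1 slide.

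Where a gene had 2 tested probes, the probes were compared. The TGFBR3 probes carry the name of 1 predicted transcript and correlated with r = 0.54 over 44 samples that share arrays and pool. Their pregnancy differences were unequal in caruncular tissue, by 0.75 on the log2 scale (permutation test, 2-sided, adjusted p = 0.0214 over both tissues), and in intercaruncular tissue, by 0.64 (permutation test, adjusted p = 0.0380, and 0.0506 when adjusted over the TGFB3 probes as well). Without the third scan date the inequality was 0.65 and 0.44 (permutation test, adjusted p = 0.0534 for both). The intercaruncular values of A_73_113136 lie mostly under the detection limit, so nothing is read from its intercaruncular inequality or from the gap between the probes' tissue differences, which averaged 1.82 in pregnant and 1.71 in cyclic cows. A second TGFB3 probe, A_73_102656, was named by its gene number and not by the rule above. It correlated with the member probe with r = 0.71, and its own pregnancy difference was -0.20 in caruncular and -0.26 (SE 0.22, adjusted p = 0.438) in intercaruncular tissue. The 2 TGFB3 probes differed in intercaruncular tissue by -0.37 (permutation test, adjusted p = 0.0334 over both genes and tissues), and the member probe alone was called lower there. Probe A_73_102656 was close to the detection limit of 80 in that tissue, with a median signal of 95.7 in pregnant and 114 in cyclic cows. It was detected in 7 of 12 and 7 of 10 of these samples, which limits what the inequality can show. The second TGFBR1 probe, A_73_121253, which was not tested, gave a value in 39 samples and correlated with the tested probe with r = 0.48.

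Embryo size was compared among the pregnant cows. In caruncular tissue 0 of 10 member probes and 0% of all probes were called by limma at an adjusted p under 0.05, with 1033 probes at an unadjusted p under 0.05. In intercaruncular tissue 0 of 10 member probes were called by the same test, with 3185 probes at an unadjusted p under 0.05, where 3.64% of all probes were (1.68% higher and 1.96% lower with large embryos). TGFB2 missed narrowly there. With small embryos its 5 levels were -0.06, -0.10, -0.24, -0.30 and -0.49, and with large embryos they ran from -0.98 to -0.48 (median -0.61). In 6 of 7 cows with a large embryo the level was below every cow with a small one. The difference was -0.45 (SE 0.12, adjusted p = 0.0504), on top of the lower level of pregnant cows, and over the alternatives the adjusted p ranged from 0.0203 to 0.117. Without the third scan date it was -0.48 (adjusted p = 0.0203). Embryo size and slide were partly tied in this tissue, with 3 small and 1 large embryo on slide 1, and 3 large and 1 small on slide 12. In caruncular tissue TGFB2 differed by 0.07 (95% interval -0.41 to 0.55).

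TGFBI differed by 0.44 (SE 0.16, adjusted p = 0.125) in intercaruncular and 0.37 (SE 0.16, adjusted p = 0.691) in caruncular tissue, higher with large embryos. BMP6 differed by -0.35 (SE 0.16, adjusted p = 0.712) in caruncular tissue, where 6 of 7 cows with large embryos lay below all cows with small ones and 1 lay above them all. Of the pathway lists 2 of 79 probes were called in intercaruncular tissue, 2.53% beside 3.64% of all probes. LTBP1, which tethers latent TGF-beta to the matrix, was lower with large embryos (-0.61, SE 0.14, adjusted p = 0.0359), and 1 of 2 SMAD3 probes was higher (0.38, SE 0.08, adjusted p = 0.0285), the other differing by 0.04. The endothelial markers PECAM1 (-0.93) and TIE1 (-0.88) were lower with large embryos in the same tissue, and their part in the result was not tested.

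By fertility label 0 of 10 member probes were called in either tissue. The share of all probes called by limma was 0% in caruncular tissue, with 1990 at an unadjusted p under 0.05, and 0.0476% in intercaruncular tissue (0.0068% higher and 0.0408% lower in fertile cows), with 1974 at an unadjusted p under 0.05. Among the 10 tested member probes the widest gap was that of BMP6 in intercaruncular tissue. All 6 fertile cows lay at -0.49 to -0.29 (median -0.43) and all 6 sub-fertile cows at -0.06 to 0.49 (median 0.14), so the groups did not overlap, which held for 1.39% of all probes tested. The difference was -0.55 (SE 0.10, adjusted p = 0.0924), and the sub-fertile cows lay within the range of the cyclic cows. Over the alternatives the adjusted p was 0.0689 to 0.366. Fertility label and slide were partly tied, with 4 fertile cows on slide 12, 3 sub-fertile cows on slide 2, and 2 of each on slide 1. In caruncular tissue BMP6 differed by -0.13 (95% interval -0.53 to 0.27). TGFB1I1 differed by -0.49 (SE 0.17, adjusted p = 0.244) in intercaruncular tissue, with 4 of 6 fertile cows below all sub-fertile cows.

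**Figure D5:**
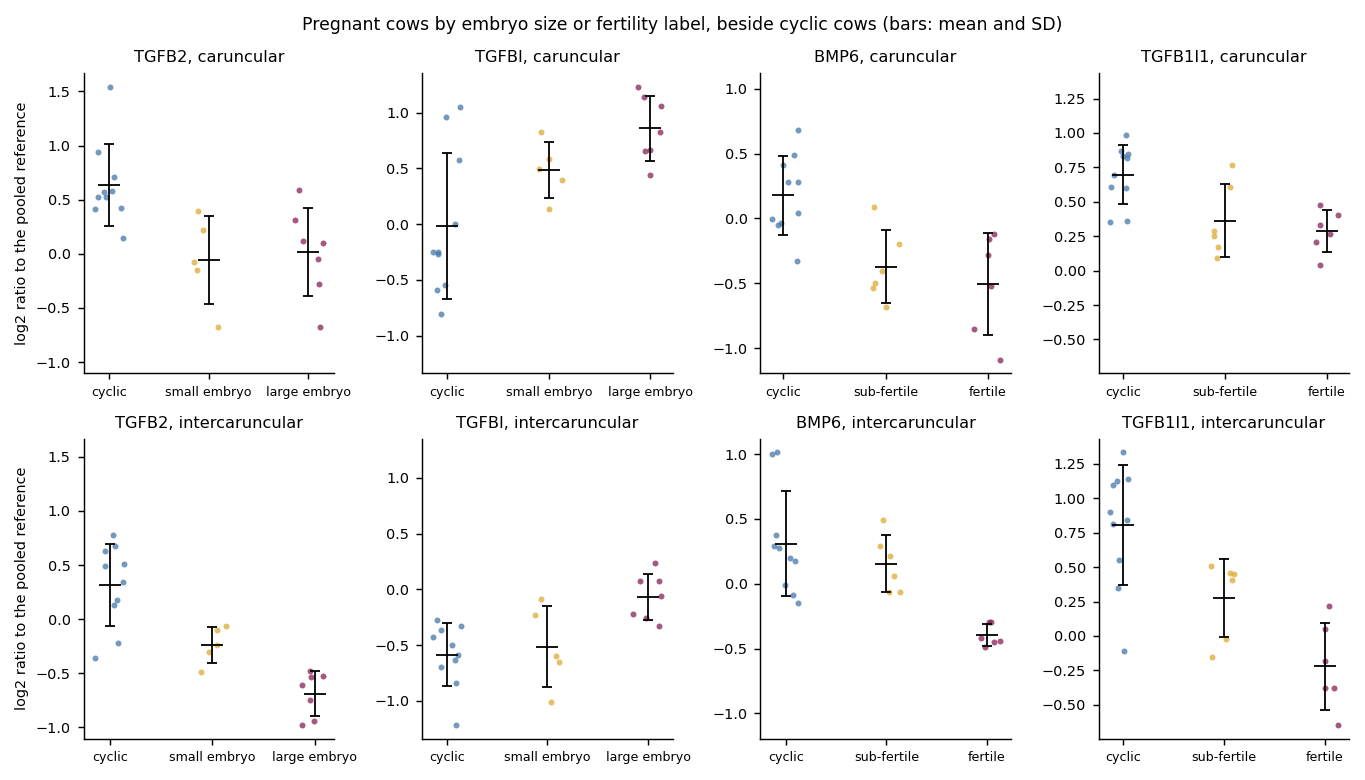
Log2 ratio to the pooled reference (vertical axis) of TGFB2 and TGFBI by embryo size and of BMP6 and TGFB1I1 by fertility label, beside the 10 cyclic cows, in caruncular (upper row) and intercaruncular (lower row) endometrium, with a point per cow and bars for mean and SD. In intercaruncular tissue the fertile cows have BMP6 at -0.49 to -0.29, below all sub-fertile cows, and 6 of 7 cows with large embryos have TGFB2 below those with small ones.

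The genes whose log2 ratios over the 44 samples were most like those of a member are given as a description, the samples sharing pool, slides and cows. TGFB2 was closest to MORC4 (r = 0.86), PVRL3 (0.85) and ARMCX3 (0.84). TGFB3 was closest to NEXN (0.81) and VCL (0.80), both of which encode proteins of the actin cytoskeleton, and to LTBP1 (0.79). TGFB1I1 was closest to COPZ2 (0.84), KIAA0141 (0.82) and PALM (0.82), and BMP6 to MGC4677 (0.81), the secreted protease HTRA1 (0.77) and FJX1 (0.77). TGFBI was closest to CCDC73 (0.87), RHOU (0.87) and MYOT (0.87). TGFB1 had the weakest likeness among the ligands, with MOBKL2A at 0.70, BSN at 0.69 and BAT2 at 0.69. TGFBR1 was closest to RAD23B (0.75), ALKBH8 (0.68) and KPNA3 (0.68), and TGFBR2 to AHCTF1 (0.80), DENND4A (0.78) and CAST (0.77). The TGFBR3 probes had no neighbour in common, A_73_105479 being closest to PMP22 (0.83), PRKD1 (0.75) and GEM (0.74), and A_73_113136 to RAB23 (0.94), MED13 (0.93) and C1D (0.93).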

How the data were processed

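Each of 44 samples (22 cows, 2 tissues) was labelled with Cy5 and set against a pool of all 44 in Cy3. Dyes were not swapped, so a dye effect shared by all arrays stays in the levels and cancels between groups. In the scanner files deposited by the authors, spot intensities were background-subtracted and dye-normalized by LOWESS with Feature Extraction, version 9.5.3.1 per the file headers, and the log10 ratio is that of Cy5 to Cy3. The authors' deposited matrix holds log2 ratios of 17876 probes and was used as an alternative. Its scale and direction follow the scanner ratios. Its column medians are -0.03 to 0.06, and each column was centred on its median before the limma fits.

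Log10 ratios were taken to log2, spots flagged as outliers were left out, the 2 spots of a probe were averaged, and each array was centred on the median of the tested probes (-0.04 to 0.05). The 2 arrays of 4 repeated caruncular samples were averaged. A probe was tested when well above background with a signal of at least 80 in at least 22 of 44 samples, which left 14711 of 21475 probes. The number of cows limits the precision. limma 3.58.1 (lmFit, eBayes) in R 4.3.3 was fitted on all tested probes, with Benjamini-Hochberg adjustment over all of them. It was tested on simulated data. Pregnancy was compared within a tissue at 1.5-fold and an adjusted p under 0.05, and tissue, embryo size, fertility and the interaction at the adjusted p alone. Probes of 1 gene were compared by a 2-sided permutation test (100000 resamples). Symbols came from the array and from the RefSeq gene table. Members, pathway lists and marker lists were chosen with earlier results of these data known. Named are all members, every pathway list gene called with pregnancy, and the 3 genes closest to each member probe. List genes called between cows with large and small embryos and the second TGFB3 probe were named after their values were seen.

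The tissues can be paired by cow, since the labels give the same 22 cows for both. The main tissue and interaction fits left the cow out, and the cow as a block was an alternative. The deviations of a cow's 2 samples from their group means correlated at 0.11 to 0.87 (median 0.61), in all 22 cows over 0.1. Alternatives were the deposited matrix, normexp (offset 50) followed by loess, values without centring, other filters on dim probes (none, or all 44 samples), the first or repeat array, slide, scan date and cow as blocks, the methods' t-test, all samples in 1 fit, the other label as a covariate, each pregnant cow left out for embryo size and, chosen after seeing the data, removal of the third scan date and the comparison of TGFB3 probes. Genome positions of the probes were not analysed here. Python 3.11.15, pandas 2.3.3, numpy 2.4.6, scipy 1.17.1 and matplotlib 3.10.9 were used for tables and figures.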

Additional observations from a re-analysis of the deposited data

Results flagged for a closer look

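In 9 of 100 groups of samples looked at, 1 per probe and label, the highest or lowest cow stood far from its neighbour, where chance gives about 1 group in 20. The groups share cows, so the flags are not independent. Of these, 7 belong to the 2 cows whose tissues shared a slide on the third scan date. In the pregnant one of them the intercaruncular level of TGFBR3 probe A_73_113136 was 2.1074, where the next of the cows with large embryos was at -0.7575 and the next sub-fertile cow at -1.3805. TGFBR3 probe A_73_105479 was at 0.8473 in the same sample, above the next cow at 0.0606 among large embryos and among sub-fertile cows, and TGFBR1 was at -0.4074, below the next sub-fertile cow at -0.0308. In the cyclic one TGFBR3 probe A_73_105479 was at 0.759 in intercaruncular tissue (next 0.2822), and TGFBR1 was at 0.414 in caruncular tissue (next 0.1275). Elsewhere, TGFB3 was at -1.2218 in the caruncular sample of 1 cow with a large embryo (next -0.1473), and TGFBR2 at 0.1883 in the intercaruncular sample of 1 fertile cow (next -0.3512).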

How the results depend on the processing

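Of the 3 caruncular and 4 intercaruncular member probes called with pregnancy, 0 and 0 were called with slide as a fixed block, which rests on slides with 1 cyclic cow, and 1 (TGFB2) in intercaruncular tissue with slide as a random block. Over all probes the fixed block left 56 of 1467 and 130 of 1063 calls, and the random block 648 of 1063. By embryo size 1 member probe (TGFB2) was called in intercaruncular tissue with normexp and loess, no centring, the stricter filter, the deposited matrix, slide as a random block, scan date as a fixed block, fertility as a covariate and without the third scan date. With each cow left out it was 0 to 1, called without 1 fertile cow with a small embryo or without the pregnant cow of the third scan date, and 0 to 0 in caruncular tissue. In intercaruncular tissue, scan date as a block, removal of that date and removal of that cow all set aside the same 1 cow, and are not separate alternatives. Calls over all probes by embryo size in intercaruncular tissue went from 536 to 307 without the filter, 883 and 1097 with slide as a random and fixed block, and 1884 without the third scan date or with scan date as a block. By fertility in intercaruncular tissue they went from 7 to 2 with the stricter filter, 3 and 0 with slide as a random and fixed block, and 42 with scan date as a block or without that date.

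Between tissues, the cow as a replicate block raised member calls from 3 to 5 (fixed) and 6 (random) in cyclic cows and from 4 to 6 (fixed) and 8 (random) in pregnant cows, and no member was called in the interaction with this pairing. Slide or scan date as a fixed block left 0 in both, and TGFBR3 probe A_73_113136 turned to -1.0389 and -1.0857 in cyclic and -1.2467 and -1.1998 in pregnant cows. For a tissue difference these fits rest on the 2 cows with both tissues on 1 slide, so they are not separate checks. Over all probes these blocks left 0 of 5353 and 0 of 6892, and slide as a random block 2654 and 3895. The cow as a block gave 8167 (fixed) and 8047 (random) in cyclic cows, and 9238 and 9150 in pregnant cows. The interaction went from 3 probes to 147 and 419 with the cow as a fixed and random block, 87 without the third scan date, 9 without the filter, 1 with the stricter filter, 8 with scan date as a block, 0 with slide as a random or fixed block, and 2 with the deposited matrix or with 1 run of the repeated samples. The inequality of the TGFBR3 probes in intercaruncular tissue was 0.33 (adjusted p = 0.159) with normexp and loess and 0.62 (adjusted p = 0.0606) with the deposited matrix. Without the third scan date it was 0.44, and 0.65 in caruncular tissue (adjusted p = 0.0534 for both). BMP6 in caruncular tissue fell to -0.58 with normexp and loess, under 1.5-fold. TGFB1, TGFB1I1 and TGFB3 in intercaruncular tissue had an adjusted p of 0.0864, 0.0527 and 0.0764 with slide as a random block. Of the values followed for single probes, 211 kept direction and call, 26 lost and 10 gained the call, and 4 turned. The causes were not tested.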
